A study of Mus musculus with 502 samples.

Results

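S100a8, S100a9, Ngp, Ltf, Camp, Lcn2, Cxcr2, Il1r2, G0s2 and Hdc encode granule proteins and other products typical of neutrophils. These 10 genes were taken by symbol from the count table, where all 10 were found among 46603 gene rows. They were followed in 502 single Cd45+ cells (cells with the pan-leukocyte surface protein) from kidneys of CD1 wild type mice, an outbred stock, at about 3 weeks of age. Kidneys were dissociated fresh, or after storage of the whole organ at 4 °C in HTS-FRS, an organ transplant solution, for 6 h or for 1, 2, 3 or 4 days. They were not perfused, so blood was not flushed from the vessels before dissociation. Viable (propidium iodide negative) singlets were sorted into plates. Full-length cDNA was prepared by an adapted Smart-seq2 protocol, and only cells that yielded more than 2 ng of cDNA were sequenced. The study's methods state that the kidney tissue of a timepoint came from the same mouse, with both kidneys combined up to day 2 and kidney portions at days 3 and 4.

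Values are reads per gene without molecular identifiers, and rpm is the number of reads of a gene per 1000000 reads on genes in that cell. Totals per cell ran from 1759 to 1895431 reads, with a median of 695188. Cells were assigned to 3 library pools, here A, B and C, by a number in their labels that was read as the pool. Fresh cells fell in pools A (75 cells) and B (81 cells). Pool A also held all 76 cells of 6 h and 78 cells of day 2, pool B all 75 cells of day 1 and 82 cells of day 3, while the 35 cells of day 4 came from the 3 pools. Storage time and pool can therefore not be told apart between the timepoints of pool A and those of pool B. No label names a mouse, so among fresh cells a difference between pools cannot be told apart from one between mice, should the pools hold more than 1 mouse. Each timepoint was taken as 1 sample, and since cells do not stand for replicates, no test was run. Intervals are 95% exact intervals, the limit given for a count of 0 is 3 counts of the total, and both cover counting error only. Cells are named by timepoint and plate well, and named fresh cells are of pool A.

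Neutrophils store antimicrobial proteins in granules that are filled in sequence as the cell matures in the bone marrow. Primary granules with myeloperoxidase and elastase are made first, then specific granules with lactoferrin (Ltf), cathelicidin (Camp), neutrophilic granule protein (Ngp) and lipocalin 2 (Lcn2), and later gelatinase granules with Mmp9. Transcripts of specific granule proteins are known to be highest in marrow precursors, whereas the calcium-binding alarmins S100a8 and S100a9 and the chemokine receptor Cxcr2 are also carried by mature cells. C/EBP epsilon is the transcription factor best known for the specific granule genes.

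In GRCm38 with the GENCODE M21 annotation, S100a8 (chr3:90668978-90670035, plus strand) and S100a9 (chr3:90692632-90695721, minus strand) are neighbours 22596 bases apart. On chromosome 9 lie Ngp (chr9:110419747-110423012, plus), Ltf (chr9:111019271-111042767, plus) and Camp (chr9:109847379-109849617, minus), with 570129 bases between Ngp and Camp. Lcn2 (chr2:32384633-32388252, minus) and Hdc (chr2:126593667-126619299, minus) are on chromosome 2. Cxcr2 (chr1:74153989-74161246, plus), Il1r2 (chr1:40074079-40125231, plus) and G0s2 (chr1:193272161-193273217, minus) are on chromosome 1. Reads were counted over exons with the strand ignored. G0s2 overlaps Lamb3 on the opposite strand, and Il1r2 overlaps Gm16894 and Gm37347. The counts of G0s2 and Il1r2 may thus be less certain than those of the other 8 genes. Overlap was taken over whole gene spans, and whether exons overlap was not tested.

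The promoters of Ngp, Ltf, Camp and Lcn2 are shown because these genes encode specific granule proteins; Ngp, Ltf and Camp were high in the same few cells. Each covers 250 bases before and 50 after the RefSeq start site in GRCm38.p6, read 5′ to 3′ along the gene, with capitals on matches to the C/EBP motif TTGCNNAA or its reverse complement TTNNGCAA.
Ngp promoter, chr9:110419558-110419857, plus strand: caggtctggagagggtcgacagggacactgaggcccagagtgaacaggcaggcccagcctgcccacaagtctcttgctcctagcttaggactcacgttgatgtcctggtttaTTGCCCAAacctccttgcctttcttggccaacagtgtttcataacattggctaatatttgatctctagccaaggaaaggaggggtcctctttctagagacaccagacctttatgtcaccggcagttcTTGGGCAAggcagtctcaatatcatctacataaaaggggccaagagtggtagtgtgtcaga
Ltf promoter, chr9:111019042-111019341, plus strand: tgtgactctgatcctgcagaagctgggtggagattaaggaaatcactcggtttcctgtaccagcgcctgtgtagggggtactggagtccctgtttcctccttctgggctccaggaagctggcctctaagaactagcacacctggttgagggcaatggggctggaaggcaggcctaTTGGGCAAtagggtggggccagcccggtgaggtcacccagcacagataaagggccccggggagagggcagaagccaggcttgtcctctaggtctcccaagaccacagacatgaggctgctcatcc
Camp promoter, chr9:109849407-109849706, minus strand: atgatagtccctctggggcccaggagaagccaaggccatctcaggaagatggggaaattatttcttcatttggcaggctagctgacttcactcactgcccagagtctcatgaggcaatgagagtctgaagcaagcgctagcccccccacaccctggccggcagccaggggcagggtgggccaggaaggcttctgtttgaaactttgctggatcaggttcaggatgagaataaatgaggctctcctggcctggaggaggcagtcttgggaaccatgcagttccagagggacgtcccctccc
Lcn2 promoter, chr2:32387690-32387989, minus strand: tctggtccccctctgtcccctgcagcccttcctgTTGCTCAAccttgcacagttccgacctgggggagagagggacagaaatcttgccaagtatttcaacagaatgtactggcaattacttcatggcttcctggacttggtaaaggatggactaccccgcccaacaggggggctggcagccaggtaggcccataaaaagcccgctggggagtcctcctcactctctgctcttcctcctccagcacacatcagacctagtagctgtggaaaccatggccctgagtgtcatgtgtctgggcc
Ngp held 2 matches, the nearer of which began 11 bases before the start site. Ltf held 1 match 75 bases before it, Lcn2 held 1 near the 5′ end of the window, and Camp held none. Of the 10 genes 4 had a match, S100a9 being the other, against 10.8% of 32851 RefSeq promoters of this length. A match describes letters and not a binding site. The RefSeq and GENCODE starts differ, and the nearer Ngp match and the whole Lcn2 window lie inside the GENCODE gene spans.

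To find neutrophils without using the 10 genes, cells were called neutrophil-marked when at least 4 of 10 other neutrophil genes (Csf3r, Retnlg, Mmp9, Mmp8, Trem1, Clec4d, Cd177, Ly6g, Stfa2l1 and Asprv1) reached 10 rpm. This held for 38 of 502 cells. Ptprc, the gene of Cd45, was read in 37 of the 38, as was Csf3r, the receptor of granulocyte colony-stimulating factor. Ly6g, the classical surface marker of mouse neutrophils, and Cd177 were read in 9 each. Just below the threshold, 7 cells had 3 markers, and 3 of the marked cells had exactly 4. The median depth was 696332 reads per marked cell and 695015 per other cell. Marked cells had fewer genes, with medians of 1053 against 1929.5 in other cells, or 881 against 1592 after each cell was thinned to 100000 reads. Of the marked cells 4 also passed the marker threshold of another class, among them fresh cells C11 (4884 genes) and B5 (3384 genes), which passed several. Doublets were not called.

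Neutrophil-marked cells were mostly fresh and 6 h cells of pool A. They were 18 of 75 fresh cells of pool A (24%, 14.9 to 35.3) and 0 of 81 fresh cells of pool B, which allows a share of up to 3.70%. At 6 h, in pool A, they were 14 of 76 (18.4%, 10.5 to 28.97), an interval that overlaps that of the fresh cells of this pool. At day 1 they were 4 of 75 (5.33%, 1.47 to 13.1). None of the 78 cells of day 2 or the 82 cells of day 3 was marked, which allows up to 3.85% and 3.66%. At day 4 they were 2 of 35, both among the 14 cells of pool C. The fresh cells of pools A and B thus differed in this share by as much as fresh and day 2 cells of pool A.

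Counting the 10 genes themselves picked out nearly the same cells. At least 5 of the 10 were read in 34 cells, of which 32 were neutrophil-marked. A marked cell carried a median of 6 of the 10 (3 to 10) and another cell a median of 0 (0 to 6), with 399 of 464 other cells at 0. In marked cells the 10 genes took a median of 3.77% of all reads. The 34 cells comprised 15 fresh cells, all of pool A, 12 stored for 6 h, 4 from day 1, 1 from day 2 and 2 from day 4, and none came from day 3. The 2 that were not marked were day 1 cell F11, with 3 markers and 6 of the 10 genes, and day 2 cell A5, with 2 markers and 5 of the 10 genes. In day 2 cell A5 S100a9 stood at 10179 rpm, S100a8 at 3867, Hdc at 3180 and Cxcr2 at 2243, all within the range of marked cells.

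**Figure D1:**
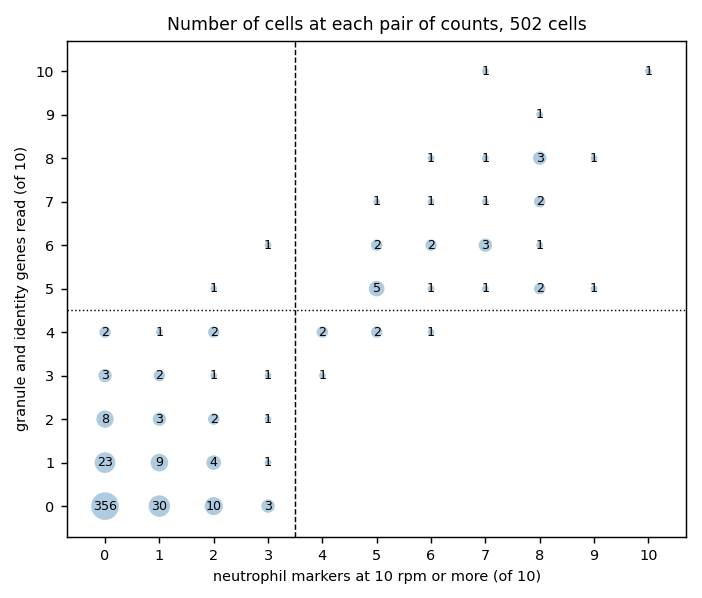
Number of cells at each combination of neutrophil markers at 10 rpm or more (horizontal axis, of 10) and granule and identity genes read (vertical axis, of 10), over 502 cells. Point size grows with the number printed on it, the dashed line is the threshold of 4 markers and the dotted line that of 5 genes; 32 cells are past both lines, 6 past the dashed line alone and 2 past the dotted line alone.

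S100a8 and S100a9, which together form calprotectin, were the most abundant of the 10. S100a8 was read in 37 of 38 marked cells, at 0 to 35188 rpm with a median of 10739.8 rpm. S100a9 was read in 35 of 38, at 0 to 70120.1 rpm with a median of 13924 rpm. The highest value of each was in 6 hour cell D4, which had only 11737 reads, and the next highest were 26129 and 30022 rpm in 6 hour cell A10. In all 35 cells with both, S100a8 was below S100a9 in rpm per kb of exon, by a median log2 ratio of -0.83 (-2.30 to -0.40). Their log2(rpm + 1) values went together over the 38 marked cells (Pearson r 0.877), a description over cells that share libraries.

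Over all cells, S100a8 was read in 34 of 75 fresh cells of pool A (45.3%, 33.8 to 57.3), 1 of 81 of pool B, and 21 of 76 stored for 6 h (27.6%, 17.99 to 39.1). With longer storage it was read in 9.33% of cells on day 1, 6.41% on day 2, 0% on day 3 and 14.3% on day 4. Many of these cells had a few reads only. At 10 rpm or more S100a8 was found in 23 fresh cells, 17 stored for 6 h, 6 from day 1, 1 from day 2, none from day 3 and 3 from day 4. S100a9 was found at this level in 20, 16, 4, 1, 0 and 2 cells of the same timepoints. Cells at 10 rpm or more of either gene were thus seen at each timepoint except day 3. There, no read in 82 cells allows a share of up to 3.66%. In shallow cells a few reads reach this level, as in fresh cell D4 (1759 reads in all) and 6 hour cell D7 (21412).

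**Figure D2:**
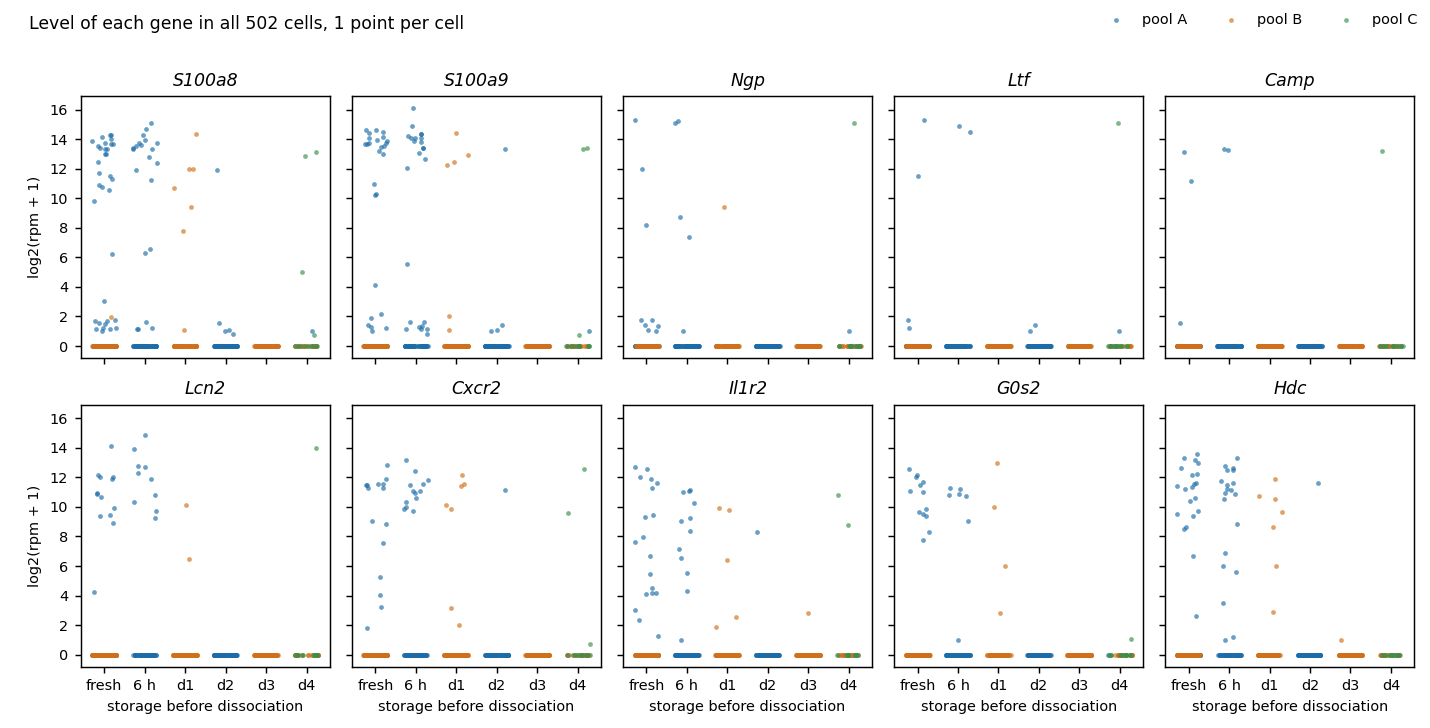
Level of each of the 10 genes as log2(rpm + 1) (vertical axis) in each of 502 cells by storage time (horizontal axis: fresh, 6 h and days 1 to 4). Each point is 1 cell, coloured by library pool and spread sideways at random. Most high values are fresh and 6 h cells of pool A, a few cells of days 1, 2 and 4 reach the same levels, and among the 82 cells of day 3 only Il1r2 and Hdc have a read, in 1 cell each.

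Ngp, Ltf and Camp were high in 5 marked cells and low or unread in nearly all others. Camp, the cathelicidin precursor, was read in 5 of 38 marked cells, namely fresh cells F12 and C11, 6 hour cells A10 and F5, and day 4 cell B9. At 10 rpm or more Ltf, the iron-binding lactoferrin, marked the same 5 cells of the 502. In fresh cell F12 Ngp stood at 41054 rpm, Ltf at 40869.5, Camp at 9034 and Lcn2 at 18225. In 6 hour cell A10 Ngp stood at 39095 rpm, Ltf at 23125, Camp at 9976 and Lcn2 at 30529.5. These 2 cells differed by less than 2-fold in each of the 4 genes, although 1 was fresh and 1 stored for 6 h. In 6 hour cell F5 Ngp stood at 35680 rpm (35679.9), Ltf at 30401, Camp at 10471 and Lcn2 at 15566. In day 4 cell B9, from pool C, Ngp stood at 35205 rpm, Ltf at 35618, Camp at 9618 and Lcn2 at 16165. Fresh cell C11, the cell with markers of several classes, was lower, with Ngp at 4028 rpm, Ltf at 2862, Camp at 2341 and Lcn2 at 1844. In the 5 cells the 10 genes together took a median of 13.2% of all reads.

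In the 33 marked cells without Camp, Ltf was read in 1, at 1.36 rpm. Ngp, a cystatin-like granule protein, was read in 7 of the 33, at up to 693 rpm. Lcn2, which binds bacterial siderophores and is also known from injured epithelium, was broader than the other granule genes. It was read in 16 of the 33, at up to 6877 rpm, and in 21 of all 38 with a median of 632 rpm. Over the 38 cells Pearson r of log2(rpm + 1) was 0.998 for Ltf and Camp, 0.871 for Ngp and Camp and 0.474 for Camp and Lcn2. Each of these coefficients rests on the same 5 cells. By timepoint, Camp was read in 3 fresh cells, all of pool A and 1 of them not marked, in 2 stored for 6 h and 1 from day 4, and in no cell of days 1, 2 and 3. Lcn2 was read in 13 fresh cells, all of pool A, 10 stored for 6 h, 2 from day 1, 1 from day 4 and none of days 2 and 3.

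**Figure D3:**
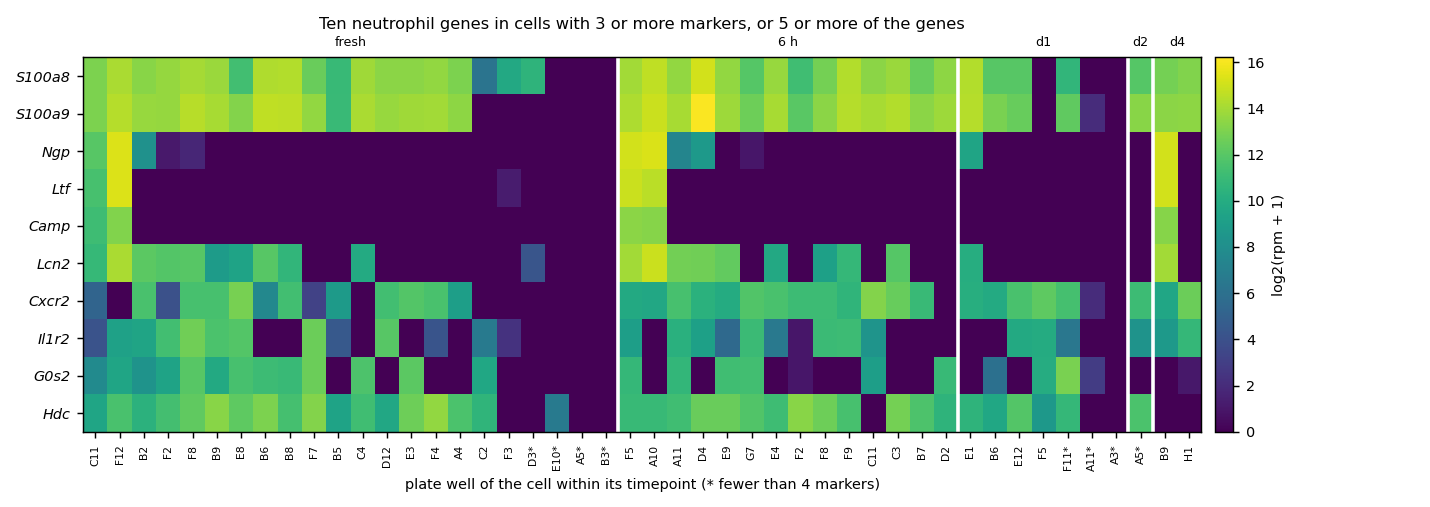
Level of the 10 genes (rows) as log2(rpm + 1) (colour) in every cell with at least 3 neutrophil markers or at least 5 of the 10 genes (columns, named by plate well). White lines separate storage times and an asterisk marks cells with fewer than 4 markers. High Ngp, Ltf and Camp are seen together in fresh cells C11 and F12, 6 hour cells F5 and A10 and day 4 cell B9, while S100a8 and S100a9 are high in most columns.

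Some other neutrophil genes also differed between the same 5 cells and the other marked cells, as a description with no test. The 5 cells held more genes, 1557 to 4884 per cell (median 1768) against 611 to 4080 (median 1040) in the 33, and the part of this in the values was not tested. The median was compared over all 10507 genes read in a marked cell. It was higher in the 5 cells for 12.3%, lower for 2.73% and equal for the rest. The counts of the lists stand beside these shares. Several listed genes were read in most marked cells, such as Hp in 36 and Mmp9 in 33 of 38. No share was taken over genes read as widely. Of 12 other genes of secondary and tertiary granules, 9 had a higher median in the 5 cells and 2 a lower one, Hp (2077 against 2179 rpm) and Adam8. Of the 10 markers, 5 had a higher and 5 a lower median in the 5 cells, and among the lower ones Trem1 had medians of 267.6 and 2587 rpm. Cd177 was read in 5 of 5 at 981 to 10198 rpm and in 4 of the other 33 marked cells, and Ly6g in 5 of 5 at 147.8 to 3466 rpm and in 4 of 33. Mmp8, neutrophil collagenase, had a median of 4448 rpm in the 5 cells and 0 in the 33. Lyz2, lysozyme, had medians of 20021 and 928 rpm, and Cybb, a subunit of the NADPH oxidase, 2020.33 and 0 rpm. Chil3, a chitinase-like protein, was read in 4 of 5 and in 2 of 33. Cebpe, the gene of C/EBP epsilon, was read in 3 of 5, at up to 731 rpm, and in 0 of 33. Genes of primary granules were absent from the 5 cells, with Mpo, Elane, Prtn3, Ctsg and Ms4a3 at 0, and of this list of 5 only Prtn3 was read in any marked cell. The proliferation genes Top2a and Mki67 were also at 0 in the 5 cells; they were named after their values were seen. Markers of other cell types moved with this split. Of 6 monocyte markers 4 were read in the 5 cells, with a summed level of 291.8 to 1865 rpm (median 777), and in the 33 cells the sum was 0 to 9425 rpm (median 0). Ly6c2 was read in 5 of 5 and 9 of 33, and alone ran from 291.8 to 1865 rpm in the 5 cells (median 777). Ccr2, Vcan and Ms4a4c were each read in 1 of 5, while F13a1 and Fn1 were at 0 in the 5 cells. Of 3 T cell markers only Cd3d was read in the 5 cells, in 3 of them, and it was read in 11 of 33, with summed levels of up to 715 and 2920 rpm (2919.98). The part of such RNA in the split was not tested.

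The lists of receptors, cytokines and transcription factors were split. Over all genes read in a marked cell, 12.3% had a higher and 2.73% a lower median in the 5 Camp cells. In the 5 Camp cells the median was higher for 4 and lower for 5 of 10 chemotaxis and adhesion receptors, higher for 0 and lower for 3 of 7 genes of the interleukin 1 system, higher for 0 and lower for 1 of 8 chemokine and activation genes, and higher for 2 and lower for 2 of 6 transcription factors, and it was equal for the others. Il1b, the inflammatory cytokine interleukin 1 beta, was read in 33 of 33 marked cells without Camp, with a median of 9896 rpm. In the 5 Camp cells it was 0 in 3, 1.23 rpm in fresh cell F12 and 3425 rpm in fresh cell C11, the cell with markers of several classes. Cxcl2, a ligand of Cxcr2, had a median of 1939 rpm in the 33 cells and was read in 2 of the 5. Cebpb was read in 27 of 33 and 1 of 5. Csf3r had a median of 6083 rpm in the 33 cells and at most 1248 rpm in the 5. Nlrp3, an inflammasome sensor, was read in 1 of 5 and 26 of 33. Receptors with the opposite order were Ltb4r1, read in 5 of 5 with a median of 729 rpm and in 7 of 33, Fpr1 (5 of 5 and 14 of 33), Fpr2 (4 of 5 and 12 of 33) and Cxcr4 (4 of 5 and 12 of 33). Ccl3, Ccl4, Tnf, Ptgs2 and Icam1 were each read in 1 of 5 and in 3 to 9 of 33, Il1rn in 2 of 5 and 17 of 33, and Il1rap in 2 of 5 and 16 of 33.

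Cxcr2, the receptor for neutrophil chemokines, was read in 33 of 38 marked cells, at 0 to 9385 rpm with a median of 1786 rpm. In the 5 Camp cells it stood at 0, 36.96, 763, 852 and 921 rpm, each below the median of 2183 rpm of the other 33. In all cells it reached 10 rpm in 13 fresh cells, all of pool A, 13 stored for 6 h, 5 from day 1, 1 from day 2, none from day 3 and 2 from day 4. Of the 464 other cells only 2 reached 10 rpm, day 1 cell F11 and day 2 cell A5, which also carried S100a8 and S100a9. S100a8, S100a9 and Hdc, the other genes read in at least 33 marked cells, reached this level in 13, 8 and 11 other cells. Its relative Cxcr1 had no read in any cell.

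Il1r2, the decoy receptor that binds interleukin 1 without signalling, was read in 27 of 38 marked cells, at 0 to 6621 rpm with a median of 215.9 rpm. It varied more from cell to cell than S100a8, with 11 marked cells at 0 and 23 of 33 cells without Camp above 0. At 10 rpm or more it was found in 16 fresh cells, all of pool A, 11 stored for 6 h, 3 from day 1, 1 from day 2, none from day 3 and 2 from day 4. Of the other genes of the interleukin 1 system, Il1rn, the receptor antagonist, was read in 19 of 38 marked cells and Il1rap in 18, while Il1r1, the signalling receptor, was read in 1.

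G0s2, an inhibitor of the fat-hydrolysing enzyme Pnpla2, was read in 23 of 38 marked cells, at 0 to 5976 rpm with a median of 268.3 rpm. It was read in 13 fresh cells, all of pool A, 7 stored for 6 h, 4 from day 1, none of days 2 and 3, and 1 from day 4, there with a single read (1.09 rpm). The highest value of any cell, 7927 rpm, was in day 1 cell F11, which had 3 markers, and this cell alone held most of the reads of G0s2 outside the marked class. Marked cells held 80.1% of all reads of G0s2, the lowest share of the 10 genes.

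Hdc, the enzyme that makes histamine and best known from mast cells and basophils, was read in 34 of 38 marked cells, at 0 to 12158 rpm with a median of 2647 rpm. No cell passed the threshold for mast cells and basophils (at least 3 of 8 markers at 10 rpm), and 0 of these 8 markers had a read in any marked cell. Hdc was found at 10 rpm or more in 20 fresh cells, all of pool A, 18 stored for 6 h, 6 from day 1, 1 from day 2 and none of days 3 and 4. Both marked cells of day 4 were at 0 for Hdc, although S100a8 stood at 7347 and 9157 rpm in them.

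Per kb of exon, the 10 genes fell into 3 levels in marked cells. S100a9 had a median of 26673.5 rpm per kb (quartiles 18636 to 36375) and S100a8 15475 (7978 to 21342), and their quartile ranges overlap. Far below them came Cxcr2 with 586 (154.8 to 969), Hdc with 414 (218.9 to 854), G0s2 with 308 (0 to 2140), Lcn2 with 240.98 (0 to 1545) and Il1r2 with 113.2 (0 to 858). These 5 neighbours did not differ beyond their spread over cells. Camp, Ngp and Ltf had medians of 0, and in the 5 cells with Camp medians of 12689, 29198 and 8812 rpm per kb.

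The comparison of storage for 6 h with fresh kidneys could be made within 1 pool, over 14 and 18 marked cells of pool A. Reads were summed over cells, and a gene was called higher or lower when its CPM (its reads scaled to a common library size, as rpm but on the sums) differed at least 2-fold, among 2948 genes with at least 50 reads in both sums. Of the 10 genes 0 were higher at 6 h, against 30.7% of all genes, and 1 was lower, against 20.3%. These counts depend on the setting. With the mean of log2(rpm + 1) over cells S100a9, Ngp, Lcn2 and Cxcr2 passed as higher. Without the cell with most reads of a gene in each group, Ngp, Ltf, Camp and Lcn2 did. Over all genes, more were lower than higher in both settings. The median log2 ratio of the 10 was 0.21 (-1.34 to 0.95), beside 0.22 over all genes compared. The median over all genes turned negative with the mean of log2(rpm + 1) over cells and without a minimum count. There is no replicate check, since each timepoint is 1 sample.

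Summed levels of S100a8, S100a9 and Hdc differed by less than 2-fold between fresh and 6 h. S100a8 ran from 73.9 to 20354 rpm in fresh marked cells (median 10739.8) and from 2391 to 35188 at 6 h (median 12279), with CPM of 10451.5 and 11217 in sum and a log2 ratio of 0.10. S100a9 had medians of 13259 and 17383 rpm and a log2 ratio of 0.15. With each cell given equal weight, the means of log2(rpm + 1) differed by 0.73 for S100a8 and by 1.76 for S100a9, the latter past 2-fold. Hdc had medians of 2819 and 3034.5 rpm and a log2 ratio of -0.15. Ranges overlapped between fresh and 6 h for each of the 10 genes. The log2 ratios of S100a8 and S100a9 turned to -0.07 and -0.02 with TMM factors, which lowered the median of all genes from 0.22 to 0.05.

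Il1r2 was the gene called lower, with CPM of 1670 in fresh cells (1645 to 1694, counting error only) and 659 at 6 h (645 to 675), a log2 ratio of -1.34. Its median over cells went the other way, from 62.8 rpm in fresh cells (0 to 6621) to 210 rpm at 6 h (0 to 2224), with reads in 13 of 18 and 10 of 14 cells. The sum thus followed the few fresh cells with the highest rpm. When log2(rpm + 1) was averaged over cells instead, the difference was -0.32, short of 2-fold.

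G0s2 had CPM of 1497 in fresh cells and 838 at 6 h, a log2 ratio of -0.84. It was read in 13 of 18 fresh and 7 of 14 cells of 6 h, with medians of 758 and 0.505 rpm. Cxcr2 was read in 14 of 18 and 13 of 14, with medians of 492 and 2090 rpm (2089.9) and a log2 ratio of the sums of 0.56. With each cell given equal weight, the difference of the means of log2(rpm + 1) was -2.94 for G0s2 and 3.00 for Cxcr2, both past 2-fold. In both genes the values of single cells overlapped over most of their range.

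Sums of the granule genes depended on single cells. Fresh cell F12 held the largest part of the fresh reads, with 96.5% for Ngp, 97.9% for Ltf and 92.8% for Camp. At 6 h the top cell held 59.1%, 67.6% and 62.5%. Log2 ratios were 0.67 for Ngp, 0.28 for Ltf, 0.95 for Camp and 0.77 for Lcn2. Without the cell with most reads in each group they were 4.26, 4.27, 3.35 and 1.18, so the ratios of Ngp, Ltf and Camp compare 1 or 2 cells a group. Over all genes compared the top cell held a median of 51.5% of fresh reads and 73.98% of 6 h reads.

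**Figure D4:**
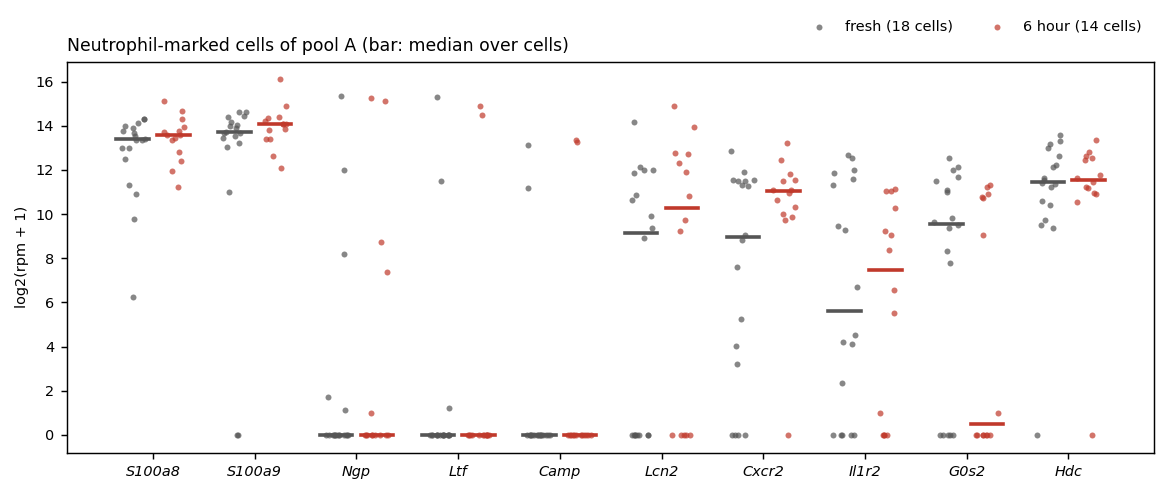
Level of the 10 genes as log2(rpm + 1) (vertical axis) in the neutrophil-marked cells of pool A, 18 fresh (grey) and 14 after 6 h (red), 1 point per cell with the median over cells as a bar. Values of both groups overlap for each gene, the bars of S100a8, S100a9 and Hdc lie close together, and the bar of G0s2 lies at 758 rpm in fresh cells and 0.505 rpm at 6 h on this log scale.

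Of other gene lists in the same comparison, the counts past 2-fold stand beside 30.7% higher and 20.3% lower over all genes compared. With the mean of log2(rpm + 1) over cells, more genes were lower than higher. Counts of the lists were not taken under such alternatives. Among 12 other granule genes 1 was higher, Olfm4 (log2 ratio 1.06, read in 5 fresh cells and 1 cell of 6 h), and 1 lower, Itgam (-1.26), and their median was -0.06. Among chemotaxis and adhesion receptors 8 of 10 could be compared and 2 were higher, Fpr2 (1.55, 7 and 7 cells) and Ltb4r1 (1.89, 5 and 5 cells). In the interleukin 1 system 4 of 7 could be compared and 1 was lower, Nlrp3, with CPM of 833.8 and 92.8 from 15 and 7 cells. Of the chemokines and activation genes 6 of 8 could be compared and 1 was higher, Ccl3, with CPM of 11.7 and 142.7 from 2 and 2 cells. Of 6 transcription factors 4 could be compared and 0 passed. Of 7 related S100 and lipid genes 5 could be compared, Plin2, a lipid droplet coat protein, was higher (1.05, 8 and 6 cells) and Abhd5, an activator of Pnpla2, lower (-2.59, 1 and 1 cells). Of the 10 markers 1 was higher, Ly6g (1.25). Primary granule genes could not be compared.

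Markers of other cell types moved with the comparison. The summed level of 6 monocyte markers was 0 to 9425 rpm in fresh marked cells (median 34.9) and 0 to 777 rpm at 6 h (median 0). Of these only Ly6c2 could be compared, and it was lower (log2 ratio -2.92, read in 9 fresh cells and 3 of 6 h). Of 3 T cell markers only Cd3d could be compared, and it was higher (1.11, 7 and 4 cells). In marked cells Cd3e was read in 1 and Cd3g in 0. The 3 C1q genes reached 19742 rpm in a fresh cell and were 0 in each cell of 6 h, and 6 dendritic cell markers reached 1587 rpm and 0. Kidney epithelium markers reached 4762 and 0.993 rpm, red cell and platelet markers 1581 and 0, endothelium markers 262.8 and 0, T cell markers 835 and 860.1, and eosinophil markers 0 and 1075. None of the 5 B cell, 7 NK cell, 8 mast cell and basophil or 4 group 2 innate lymphoid markers had a read in a marked cell. Without the 4 marked cells that passed another class, the log2 ratio was -1.68 for Il1r2, -1.19 for G0s2, -0.12 for S100a8 and -0.09 for S100a9. The other 6 ratios lay between -0.48 (Hdc) and 0.68 (Camp), each within 0.5 of its value over all marked cells.

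Outside the marked class the 10 genes were rare, and values of S100a8, S100a9 and Lcn2 at 10 rpm or more were mostly in cells with monocyte markers. S100a8 was read in 36 of 464 other cells and S100a9 in 29, with 13 and 8 cells at 10 rpm or more. Among the 13 were fresh cell D4 (1759 reads in all) and 6 hour cell D7 (21412), where a few reads reach this level. Of these 13 and 8 cells, 7 and 5 were monocyte-like (at least 3 of Ly6c2, Ccr2, F13a1, Vcan, Fn1 and Ms4a4c at 10 rpm, and no other class). Fresh cell F10, monocyte-like, had S100a8 at 13366 rpm, S100a9 at 13733 and Lcn2 at 1926, and 6 hour cell D8, also monocyte-like, had 10129.8, 8554 and 1270.1 rpm. These values lie within the range of marked cells, while Cxcr2, G0s2 and Hdc were at 0 in both cells. All 5 other cells with Lcn2 were monocyte-like, with 18.2 to 1926 rpm. Ngp, Ltf and Camp reached 10 rpm in 0 of 464 other cells, with at most 2.36, 2.36 and 1.90 rpm.

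By class, S100a8 was read in 12 of 36 monocyte-like cells (33.3%, 18.6 to 50.97, median depth 703433 reads), 5 of 93 Cd3-marked cells (5.38%, 1.77 to 12.1, 706746), 3 C1q-marked cells (2.42%, 0.502 to 6.91, 612776) and 1 of 70 B-like cells (1.43%, 0.0362 to 7.70, 731025). Thinned to 100000 reads, these became 7 of 36, 1 of 92, and none of the C1q-marked and of 70 B-like cells. B cells are not known to make S100a8, and the shares of the other classes are set beside theirs. The classes were not matched by pool or timepoint, by which low counts of S100a8 differed. The monocyte-like share lay above that of B-like cells, and those of Cd3-marked and C1q-marked cells had intervals that overlap it. The source of reads in B-like cells was not tested. In Cd3-marked, C1q-marked and B-like cells S100a8 reached at most 2.95 rpm. Il1r2 and Hdc were each read in 4 of 36 monocyte-like cells, at up to 251.2 and 116.4 rpm, and in 0 of 70 B-like cells, which allows a share of up to 4.29%. Hdc also reached 63.7 and 455 rpm in 2 Cd3-marked cells of 6 h.

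**Figure D5:**
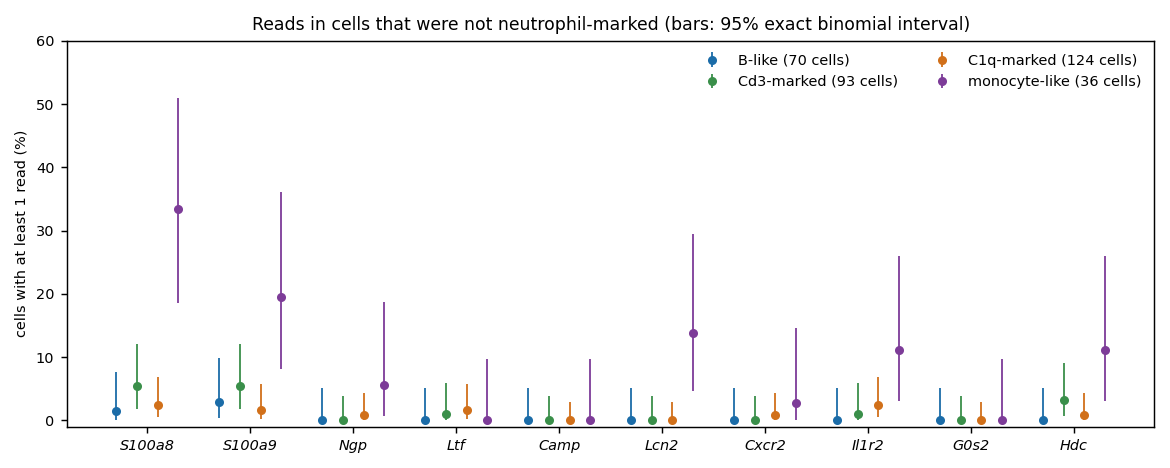
Share of cells with at least 1 read of each of the 10 genes (vertical axis, percent) among cells that were not neutrophil-marked, by marker class, with 95% exact binomial intervals. Monocyte-like cells are highest for S100a8 (33.3%), S100a9 (19.4%) and Lcn2 (13.9%), while B-like, Cd3-marked and C1q-marked cells stay at or below 5.38% for each gene.

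Low counts of S100a8 outside the marked class differed by pool and by timepoint. Any read was found in 14.6% of other cells of pool A (9.98 to 20.3) and in 1.98% of those of pool B (0.645 to 4.55). From 1 to 5 reads were found in 22 cells of pool A and 2 of pool B. Pool A had 12 such cells among 57 fresh ones (21.1%), 5 among 62 stored for 6 h (8.06%), 4 among 78 of day 2 (5.13%) and 1 among 2 of day 4. All 22 cells of pool A shared a library index with a marked cell of their pool, as did 92.4% of the 170 other cells of this pool without a read. The marked cells that shared an index held a median of 39208 reads of S100a8 for the 22 cells and of 21599 for the 170. S100a9 gave 19 cells in pool A (6 fresh, 9 at 6 h, 3 at day 2 and 1 at day 4), with medians of 56559 and 26445 reads. No index pair was repeated within a pool. Whether reads passed between libraries of a pool, or free RNA entered wells, was not tested.

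Over all 502 cells, the genes most like the mean log2(rpm + 1) of the 10 were sought among 12427 others read in at least 10 cells. Lrg1, a leucine-rich glycoprotein, came first with a Pearson r of 0.914, and it was read in 35 of 38 marked cells and 7 others. BC100530 (0.885), Mmp9 (0.871), Wfdc21 (0.858), Slfn4 (0.843), Mrgpra2b (0.814), Retnlg (0.802), Hp, which is haptoglobin (0.768), Stfa2l1 (0.761) and BC117090 (0.761) followed. Mmp9, Retnlg and Stfa2l1 are among the 10 markers. BC100530, Stfa2l1 and BC117090 belong to the stefin A family and Mrgpra2b has a close paralog, so reads could be split between copies. The coefficients mostly reflect presence in marked cells: over the 38 marked cells alone r was 0.330 for Lrg1, 0.593 for Mmp9 and -0.02 for Stfa2l1.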

How the data were processed

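Cd45+ single cells from fresh and cold-stored kidneys of CD1 mice were sequenced. According to the methods, the authors trimmed reads to 75 bp and removed duplicates. Alignment to GRCm38 used STAR, and HTSeq (intersection-strict mode, no strand) gave reads per gene. Cells under 1000 reads were dropped, and versions of STAR and HTSeq are not stated in the sources. The deposited values are raw counts, 1 column per cell. ERCC rows (96) and a vector row (0.139% of counts) were left out, and the 18S rRNA gene (6.60% of gene counts) was kept in the totals. Totals ran from 1759 to 1895431 per cell.

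Here counts were divided by each cell's total to rpm, and logs are log2(rpm + 1). Classes were called from marker counts at 10 rpm: at least 4 of 10 for neutrophils, 3 of 5 for B, 2 of 3 for Cd3 and for C1q, and 3 of 6 for monocytes. Thinning drew 100000 reads per cell without replacement and left out 8 cells. Scripts were tested on simulated data. The genes named are the 10, the 10 most like them and those of the fixed lists. The 10 genes, the lists and the thresholds were chosen with earlier results of these data known. Clopper-Pearson and Poisson intervals were at 95%. No statistical test was made, as each timepoint was taken as 1 sample. Alternatives covered the thresholds, pools, thinning, totals, TMM (edgeR 4.0.16), size factors (DESeq2 1.42.0) and single cells. Python 3.11.15, scipy 1.17.1 and R 4.3.3 were used.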

Additional observations from a re-analysis of the deposited data

How the results depend on the processing

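Shares of cells were held to have moved when they left the 95% interval of the reported share, counts and shares of genes when they differed by more than 1.5 times, and log2 values when they differed by more than 0.5. By pool, fresh cells with at least 5 of the 10 genes were 20% of pool A and 0% of pool B (reported over both: 9.62%), and neutrophil-marked fresh cells 24% and 0% (reported: 11.5%). In pool B alone 1 of the 10 genes was read in fresh cells, beside 10 over both pools. At day 4, pools A (2 cells) and B (19 cells) alone gave 0% for both shares, beside 5.71%, and 4 and 0 of the 10 genes read, beside 9. Other cells with any of the 10 genes were 14.01%, and 25.6% in pool A alone, 4.74% in pool B alone, 5.91% after thinning to 100000 reads and 5.17% at 10 rpm in place of 1 read. At day 3 the genes read in some cell went from 2 to 1 after thinning and to 0 at 10 rpm. With at least 6 genes the share at day 2 went from 1.28% to 0%.

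For 6 h against fresh, the 906 higher and 598 lower genes, 30.7% and 20.3% of those compared, became 1960 and 6077 without a minimum count (19.4% and 60.2%). They became 8.41% and 26.8% with the mean of logs, 24.3% and 13.9% after thinning, where 447 genes were higher, and 24.6% and 32.5% without the top cell of each gene, where 507 and 670 were called. Of the 10 genes, higher ones went from 0 to 4 with the mean of logs (S100a9, Ngp, Lcn2, Cxcr2) and without the top cell (Ngp, Ltf, Camp, Lcn2), to 3 after thinning (Ngp, Camp, Lcn2) and to 2 with at least 3 markers (Camp, Lcn2). The lower one was G0s2 in place of Il1r2 with the mean of logs. Lower ones went from 1 to 2 with TMM factors and without marked cells of another class, an alternative chosen after seeing the data; in both the second gene was G0s2. The median of the 10 stayed within 0.5 of 0.21 under all 10 alternatives. Of the 10 genes most like the members, 5 stayed with Spearman's rho and 2 in marked cells alone. Altogether 30 of these 180 values moved, as did 96 of 470 other values, mostly of single genes, and the cause was not tested. The median of all genes, 0.22, became -1.68 without a minimum count and -0.31 with the mean of logs. No paired analysis was possible because replicate numbers only name cells. Depth limits shares of 0 to the bounds given, and a gene without a read may be below detection.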

Other observations

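S100a9 was at 0 in 3 of the 38 neutrophil-marked cells. Day 1 cell F5 had no read of S100a8 or S100a9 in 640087 reads, with Cxcr2 at 4545 rpm, G0s2 at 1031, Il1r2 at 987 and Hdc at 399.9, and 4 of the 10 markers. Fresh cell C2 had S100a8 at 73.9 rpm, Hdc at 1552, G0s2 at 791 and no read of Ptprc, the gene of Cd45, with 135302 reads on 611 genes. Fresh cell F3 had S100a8 at 886 rpm and none of S100a9, Cxcr2, G0s2 or Hdc, passed the monocyte threshold and held 3797 genes. All 3 cells sit at the threshold of 4 markers.

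G0s2 and Cxcr2 were read together in 19 of the 38 marked cells, G0s2 in 23 and Cxcr2 in 33, with a Pearson r of -0.24 between their log2(rpm + 1) values, a description over cells that share libraries.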
